A study of Mus musculus with 12 samples.

Results

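The EGF receptor family was followed through 10 genes in mouse glomeruli: the receptors Egfr, Erbb2 and Erbb3, the ligands Egf, Hbegf, Tgfa, Btc, Ereg and Areg, and the sheddase Adam17. Members were taken by gene name. A gene was represented by the array probe set that the platform annotation assigns to its symbol alone and, among several, by the one with the highest mean over all arrays. A probe set of that kind was found for 9 of the 10 genes, out of 18201 genes named in this way, and all 9 were among the 11921 genes tested. Areg, the gene of the ligand amphiregulin, was not analysed here because no probe set carried its symbol alone.

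The 12 arrays, each from 1 mouse, formed 4 groups of 3, namely 129S2SvPAs mice with anti-GBM GN, 129S2SvPAs controls, C57BL6J mice with anti-GBM GN and C57BL6J controls. All were female, 8 to 10 weeks old and of inbred strains that carry no engineered allele by the labels. Anti-GBM GN is an antibody-driven inflammation of the glomerulus, the kidney's filter, raised here with nephrotoxic serum on days 0, 1 and 2. Mice were killed on day 4 and glomeruli were separated on nylon sieves of 100 and 45 µm. Titles and treatment labels name the controls as such, yet their records carry the same nephrotoxic serum protocol and nephritis description as those of the challenged mice. What the controls received is therefore not settled by the sources used here, and each difference below is between mice labelled anti-GBM GN and mice labelled control. The labels do not name the animal behind each array beyond a replicate number, so the p-values measure the spread between these samples.

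EGF receptors are tyrosine kinases that pair when a ligand binds. ERBB2 has no known ligand of its own and acts as a partner, and ERBB3 has little kinase activity and signals through the receptor it pairs with. The ligands are made as membrane-bound precursors, and ADAM17 cuts several of them loose, HB-EGF, TGF-alpha and amphiregulin among them, while ADAM10 cuts the precursors of EGF and betacellulin. Kidney Egf is made mainly by the thick ascending limb and the distal convoluted tubule, outside the glomerulus. HB-EGF acting on EGFR of podocytes has been described in experimental crescentic nephritis in mice.

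The ligand genes Egf and Tgfa are shown first by their promoters, because Egf had the largest response of the members in 129S2SvPAs and Tgfa the largest in C57BL6J. The windows run from 250 bases before to 50 after the annotated start, 5′ to 3′, from RefSeq on GRCm38.p6. The Egf window, chr3:129755273-129755572 on the minus strand, is the first of 2 that RefSeq gives for the gene. The Tgfa window is chr6:86194972-86195271 on the plus strand. Capitals mark a GC box, GGGCGG read on either strand.
Egf: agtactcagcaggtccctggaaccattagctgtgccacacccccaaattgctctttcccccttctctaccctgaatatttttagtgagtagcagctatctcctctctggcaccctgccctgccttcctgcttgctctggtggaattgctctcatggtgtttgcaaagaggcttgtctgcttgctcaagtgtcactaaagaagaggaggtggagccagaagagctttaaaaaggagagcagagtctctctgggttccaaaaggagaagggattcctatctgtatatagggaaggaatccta
Tgfa: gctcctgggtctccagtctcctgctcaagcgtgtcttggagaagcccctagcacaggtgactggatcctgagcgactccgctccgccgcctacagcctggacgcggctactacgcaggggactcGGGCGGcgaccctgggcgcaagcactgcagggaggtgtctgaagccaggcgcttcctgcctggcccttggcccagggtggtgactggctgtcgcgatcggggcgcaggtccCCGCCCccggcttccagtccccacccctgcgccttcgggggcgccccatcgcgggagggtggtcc
Tgfa's window holds 2 GC boxes, which begin at positions -126 and -15 from the start, and 70.7% of its bases are G or C. Neither of Egf's windows holds a GC box, an AP-1 motif (TGANTCA), a CRE (TGACGTCA) or a TATA box (TATAAA), each read on both strands. Of 32851 windows of this length, 35.7% hold a GC box, 7.81% an AP-1 motif, 1.79% a CRE and 13.6% a TATA box. The 4 motifs were searched as letters only, and their absence from a window describes that window alone. Ereg, Areg and Btc lie in that order on chromosome 5, next to Epgn, the gene of the ligand epigen.

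Signals are the authors' deposited log2 values, with array medians between 2.99 and 3.06. A gene was called above the floor in a group where all 3 arrays reached 4.03, which is 1 log2 unit over the median of all values, and near the floor where none did. The 6 Y-linked genes with a probe set, which female mice do not carry, lay between 2.40 and 3.44. The glomerulus label was checked with markers. The 6 podocyte markers with a probe set were above the floor in all 4 groups, with 1 exception. Nphs1 gave 3.42 on replicate 1 of 129S2SvPAs anti-GBM GN. All 9 proximal tubule markers stood at 8.38 or more on all 12 arrays, so tubule transcripts were present in these preparations. Group means of the proximal tubule list ran from 11.34 to 12.37, and those of the podocyte list from 7.21 to 9.04. The first array of 129S2SvPAs anti-GBM GN stood apart. Across the genes tested it correlated at 0.973 to 0.974 with the other arrays of its group, which correlated at 0.994 with each other.

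By this rule 7 of the 9 measured members were above the floor in at least 1 group. Egfr, Erbb2, Erbb3, Egf, Hbegf and Adam17 were above it in all 4 groups. Of the 5 measured ligands, Egf and Hbegf were detected in every group, Tgfa in 3 of the 4, and Btc and Ereg in none. With the floor placed at the 75th percentile of all values, 6.06, Tgfa was no longer counted as detected.

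**Figure D1:**
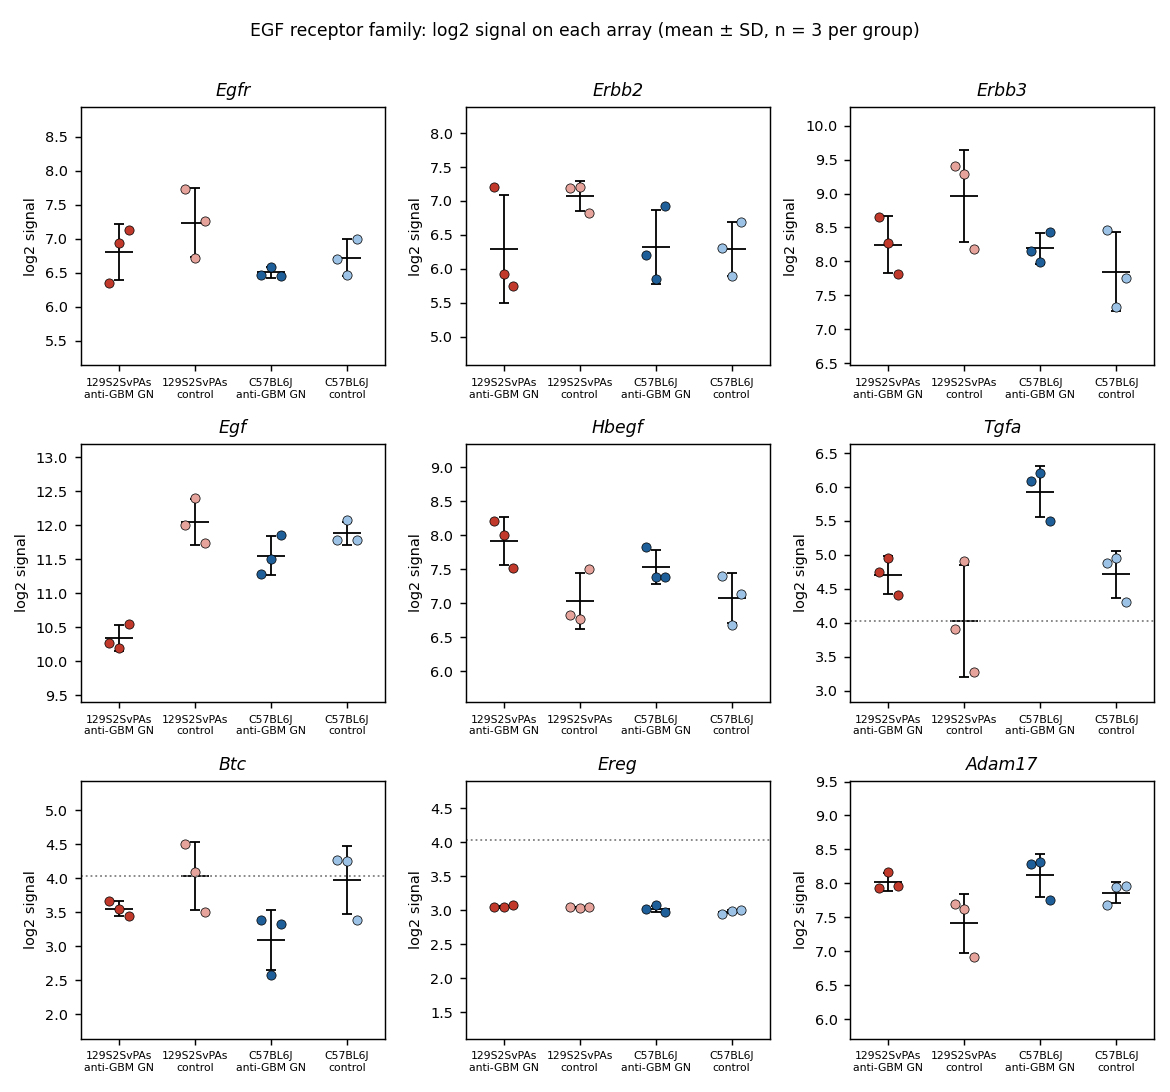
Log2 signal of each measured member on each of the 12 arrays (y axis, each panel spanning the same number of log2 units but starting at its own value) in the 4 groups (x axis). Points are mice, the horizontal bar is the group mean and the whiskers are the SD (n = 3). The dotted line is the floor threshold of 4.03. Egf is lowest in 129S2SvPAs anti-GBM GN, Tgfa is highest in C57BL6J anti-GBM GN, and all 12 Ereg values lie between 2.95 and 3.07.

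The first comparison set anti-GBM GN against control within 129S2SvPAs. Among the receptors, none passed the test. Egfr, which binds EGF, TGF-alpha and HB-EGF, gave 6.34, 6.94 and 7.13 in anti-GBM GN and 7.73, 6.72 and 7.26 in controls. The groups overlapped, and the log2 difference was -0.43 ± 0.26 (SE; limma adjusted p = 0.289). Further Egfr probe sets gave -0.63 ± 0.29 (SE; limma adjusted p = 0.167 over all probe sets) and -0.49 ± 0.17 (SE; limma adjusted p = 0.074). Erbb2 gave 7.20, 5.92 and 5.75 in anti-GBM GN, against 7.19, 7.21 and 6.82 in controls. The array that stood apart was the high one, at the level of the controls, while the other challenged mice were below all controls. Its log2 difference was -0.78 ± 0.38 (SE; limma adjusted p = 0.185), and without that array it was -1.24 (limma adjusted p = 0.0173). Over all fits without 1 array each, the Erbb2 difference ranged from -1.24 to -0.51 (limma adjusted p from 0.0173 to 0.441). Erbb3 gave 8.65, 8.27 and 7.81 in anti-GBM GN, against 9.41, 9.29 and 8.19 in controls. Here 1 control lay within the range of the challenged mice, and the log2 difference was -0.72 ± 0.36 (SE; limma adjusted p = 0.198). Without that control, replicate 3, it was -1.11 (limma adjusted p = 0.0431). Over all fits without 1 array each, the Erbb3 difference ranged from -1.11 to -0.50 (limma adjusted p from 0.0431 to 0.472). On the probe sets used and with all arrays, the 3 receptor estimates thus lay below 0, and each had a 95% interval that reached above it.

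Egf fell in 129S2SvPAs. Its signal was 10.27, 10.19 and 10.55 in anti-GBM GN, against 12.00, 12.41 and 11.74 in controls. The groups were separated by 1.19 log2 units between the highest challenged mouse and the lowest control. The log2 difference of -1.71 ± 0.20 (SE; limma adjusted p = 0.000201) is a signal 3.28-fold lower in anti-GBM GN. It was -1.68 without the array that stood apart (limma adjusted p = 0.000808). Egf passed the test in all 16 alternatives run for this comparison, between -1.87 and -1.53. In whole glomerular preparations, fewer Egf-making cells and less Egf RNA per cell cannot be told apart.

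Some markers of the tubule segments that make Egf were lower as well, and others were not. The mean signal of 9 thick ascending limb and distal tubule markers was 9.51, 9.23 and 9.59 in 129S2SvPAs anti-GBM GN and 10.36, 10.49 and 10.41 in 129S2SvPAs controls. Of these 9 genes 5 fell. They were Pvalb, encoding the calcium buffer parvalbumin (log2 difference -3.76), Calb1, the calcium buffer calbindin (-2.28), Trpm6, a magnesium channel (-1.72), Slc12a1, the sodium-potassium-chloride cotransporter of the thick limb (-0.85), and Kcnj1, a potassium channel (-0.81). Cldn16, a tight junction protein of the thick limb, rose by 0.86. Umod, the thick limb gene of uromodulin, had a difference of 0.25 (limma adjusted p = 0.146), and Klk1, tissue kallikrein, one of -0.02 (limma adjusted p = 0.975). Slc12a3, also not called, gave 10.78, 9.39 and 9.97 in anti-GBM GN and 10.08, 10.97 and 10.54 in controls, which overlapped. None of the 9 markers was near the floor on all arrays. The mean of 9 proximal tubule markers was 11.34 ± 0.13 in 129S2SvPAs anti-GBM GN and 12.37 ± 0.12 in 129S2SvPAs controls (SD, n = 3 each). The 9 did not move as one. Those that fell were Hpd, an enzyme of tyrosine breakdown (-4.40), the cytochrome gene Cyp2e1 (-2.69), Lrp2, the gene of the uptake receptor megalin (-0.83), and the glucose transporter gene Slc5a2 (-0.73). The urate transporter gene Slc22a12 rose by 1.29, and the other 4 were not called. The part of tubule content in the Egf difference was not tested.

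**Figure D2:**
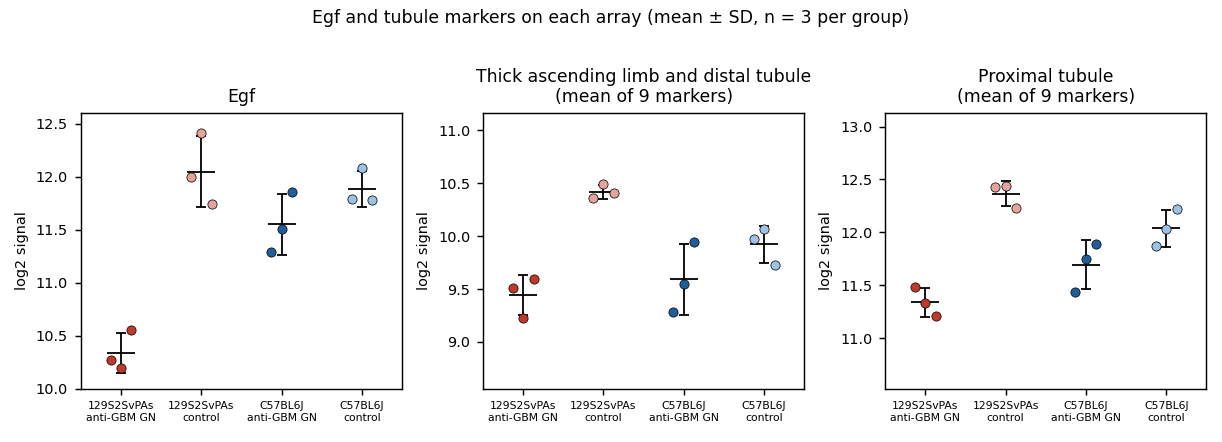
Log2 signal of Egf (left), and mean log2 signal of 9 thick ascending limb and distal tubule markers (centre) and of 9 proximal tubule markers (right), in the 4 groups (x axis). Points are arrays, bars are group means and whiskers the SD (n = 3). All 3 panels have 129S2SvPAs anti-GBM GN at the lowest mean and 129S2SvPAs controls at the highest.

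Hbegf rose in 129S2SvPAs. It gave 8.21, 8.01 and 7.52 in anti-GBM GN, against 6.82, 6.77 and 7.51 in controls, so the closest mice of the groups differed by 0.01. The log2 difference of 0.88 ± 0.26 (SE; limma adjusted p = 0.0354) is a signal 1.84-fold higher. The gene's other probe set gave 0.56 ± 0.16 (SE; limma adjusted p = 0.0339 over all probe sets). The call was lost without anti-GBM GN replicate 1 (0.73, limma adjusted p = 0.0945), anti-GBM GN replicate 2 (0.83, 0.101), control replicate 1 (0.77, 0.114) or control replicate 2 (0.75, 0.110). The direction was the same in each of these.

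The remaining ligands did not pass. Tgfa, the gene of TGF-alpha, gave 4.75, 4.96 and 4.41 in 129S2SvPAs anti-GBM GN and 3.91, 4.91 and 3.27 in 129S2SvPAs controls. The controls spread widely, with 1 of 3 above the floor. The log2 difference was 0.68 ± 0.37 (SE; limma adjusted p = 0.230), and without control replicate 2 it was 1.12 (limma adjusted p = 0.0263). Over all fits without 1 array each, the Tgfa difference ranged from 0.30 to 1.12 (limma adjusted p from 0.0263 to 0.614). Btc, the gene of betacellulin, gave 3.67, 3.55 and 3.44 in anti-GBM GN and 4.50, 4.10 and 3.50 in controls. All challenged mice were near the floor on this probe set, which limits how far a difference can be read, and the estimate was -0.48 ± 0.31 (SE; limma adjusted p = 0.322). The gene's other probe set gave an estimate of opposite sign, 0.27 ± 0.27 (SE; limma adjusted p = 0.572 over all probe sets), with 1 challenged mouse at 4.51. Ereg, the gene of epiregulin, differed by 0.01 at the floor.

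Adam17 gave 7.93, 8.17 and 7.96 in 129S2SvPAs anti-GBM GN, against 7.69, 7.63 and 6.91 in controls. The groups did not overlap, with a gap of 0.24. Its log2 difference of 0.61 ± 0.22 (SE) had a limma adjusted p of 0.0743. A further Adam17 probe set gave 0.46 ± 0.17 (SE; limma adjusted p = 0.0837 over all probe sets).

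In this comparison 2 of the 9 members were called, 1 higher and 1 lower, while 20.3% of all genes tested were called (10.6% higher and 9.76% lower). The arrays of 3 members, Egf, Hbegf and Adam17, did not overlap between the groups, against 32.5% of all genes. The median difference was -0.43 over the members and 0.00 over all genes tested.

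The same comparison in C57BL6J called 0 of 9 members by limma, with 7.09% of all genes called (4.78% higher and 2.31% lower). At an unadjusted p under 0.05 there were 2 members, Tgfa and Btc, which were also the 2 whose arrays did not overlap (29.1% of all genes). Tgfa gave 6.09, 6.20 and 5.50 in C57BL6J anti-GBM GN, against 4.88, 4.95 and 4.31 in C57BL6J controls. The gap between the groups was 0.55, and all 6 mice were above the floor. The log2 difference was 1.22 ± 0.37 (SE), a signal 2.32-fold higher, with a limma adjusted p of 0.0776. A pairing of these mice by replicate number is not stated by the labels. It was inferred from same-numbered arrays deviating together (r = 0.21 to 0.33). With the replicate number as a block Tgfa passed the test (limma adjusted p = 0.00931). The block also covered 129S2SvPAs anti-GBM GN. Its same-numbered arrays gave r from -0.16 to 0.18 with 129S2SvPAs controls and -0.38 to 0.12 with C57BL6J anti-GBM GN. This p-value therefore depends on a pairing that those arrays did not show. Both other Tgfa probe sets lay at the floor, so the estimate rests on 1 probe set.

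Btc gave 3.38, 2.58 and 3.32 in C57BL6J anti-GBM GN, against 4.27, 4.26 and 3.39 in C57BL6J controls. The gap was 0.01, and 2 of the 3 controls passed the floor. The log2 difference was -0.88 ± 0.31 (SE; limma adjusted p = 0.127), and the gene's other probe set gave 0.01, so the 2 probe sets disagree. Egf gave 11.29, 11.51 and 11.86 in C57BL6J anti-GBM GN, against 11.79, 12.08 and 11.78 in C57BL6J controls. These overlapped, and the log2 difference was -0.33 ± 0.20 (SE; limma adjusted p = 0.385; 95% interval -0.77 to 0.11). The thick ascending limb and distal tubule marker mean was 9.28, 9.55 and 9.94 in these challenged mice and 9.97, 10.07 and 9.73 in the controls, and 1 of the 9 markers, Pvalb, fell (-1.78). Of the 9 proximal tubule markers Hpd (-2.06) and Cyp2e1 (-1.14) fell.

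Hbegf gave 7.82, 7.39 and 7.39 in C57BL6J anti-GBM GN and 7.40, 6.68 and 7.14 in C57BL6J controls. The groups overlapped by 0.01, and the log2 difference was 0.46 ± 0.26 (SE; limma adjusted p = 0.356). Egfr gave 6.47, 6.59 and 6.45 in anti-GBM GN and 6.70, 6.46 and 7.00 in controls, a log2 difference of -0.22 ± 0.26 (SE; limma adjusted p = 0.722). Erbb2 gave 6.21, 5.85 and 6.92 in anti-GBM GN and 6.31, 5.89 and 6.69 in controls, which is 0.03 ± 0.38 (SE). Erbb3 gave 8.16, 7.99 and 8.44 in anti-GBM GN and 8.47, 7.33 and 7.75 in controls, which is 0.35 ± 0.36 (SE). The challenged mice lay within or near the range of the controls for all 3 receptors. Adam17 gave 8.28, 8.32 and 7.75 in anti-GBM GN and 7.68, 7.95 and 7.96 in controls, with a difference of 0.25 ± 0.22 (SE; limma adjusted p = 0.581). The median difference was 0.04 over the members and -0.03 over all genes.

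**Figure D3:**
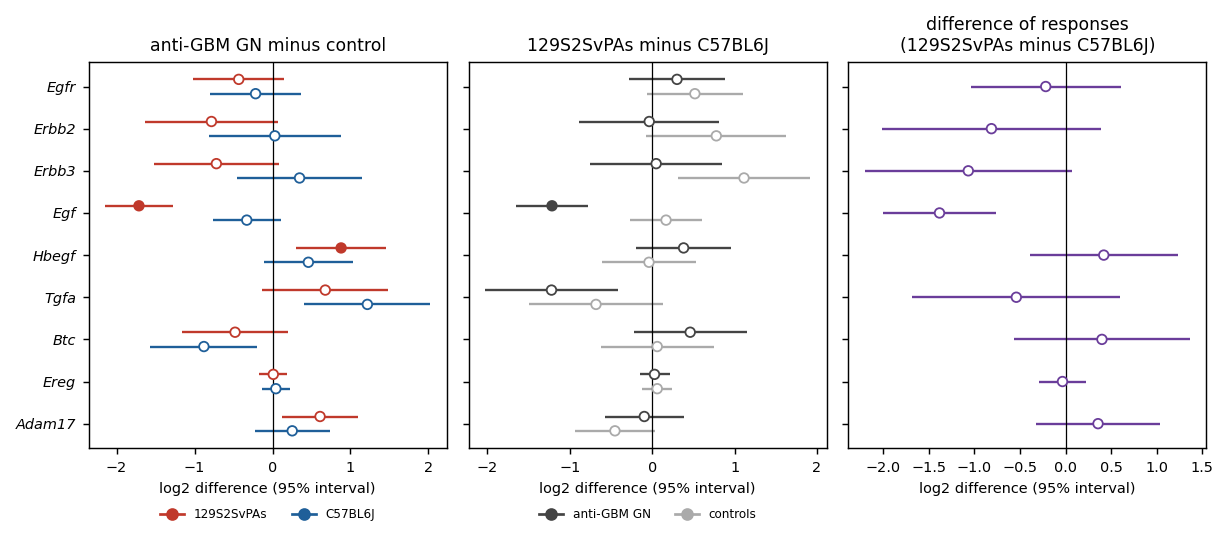
Log2 difference (x axis) of each measured member (y axis) with its 95% interval from limma, for the response to anti-GBM GN in the 2 strains (left), 129S2SvPAs minus C57BL6J in each treatment (centre) and the difference of the responses (right). Filled points have an adjusted p under 0.05, which holds for Egf and Hbegf in 129S2SvPAs on the left and for Egf in anti-GBM GN in the centre. The controls of a strain enter more than 1 panel.

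The third comparison set challenged 129S2SvPAs mice against challenged C57BL6J mice, from the values given above. Egf was lower in 129S2SvPAs by 1.22 log2 units (SE 0.20; limma adjusted p = 0.00341), which is 2.32-fold. The closest mice of the 2 strains were 0.74 apart. It was -1.18 without the array that stood apart (limma adjusted p = 0.0111), and it passed in all 16 alternatives, between -1.35 and -1.06. Here 0 of the 9 thick ascending limb and distal tubule markers were called by limma, with a median difference of -0.33, and their array means overlapped. Of the 9 proximal tubule markers 1, Slc5a2, was lower (-0.83), with a list median of -0.28. Of 5 collecting duct markers 1, Aqp2, was higher (1.73), with a list median of 0.53. The part of tubule content in this Egf difference was not tested. Egf was the only member called of 9, with 8.38% of all genes called (3.49% higher and 4.89% lower).

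On the probe sets used, Tgfa was the other member with an unadjusted p under 0.05. Its log2 difference between challenged strains was -1.22 ± 0.37 (SE; limma adjusted p = 0.0689), with a gap of 0.54 and all 3 mice of 129S2SvPAs lower. Tgfa, Btc and Egf were the 3 members whose arrays did not overlap, against 27.9% of all genes. Btc lay near the floor in both groups on the probe set used. Of the 6 podocyte markers 4 were lower in challenged 129S2SvPAs mice, namely Cdkn1c (-2.86), Nphs1 (-2.79), Wt1 (-1.58) and Ptpro (-1.31). Markers of other cells differed too. Of 6 monocyte and macrophage markers tested, Ptprc (-1.97) and Csf1r (-1.49) were lower and Cd14 (2.21) was higher. Of 7 glomerular endothelial markers Ehd3 (-1.85) was lower, and of 5 platelet markers Ppbp (-3.56) and Gp9 (-0.98) were. The part of these cells in the Tgfa difference was not tested. Hbegf differed by 0.38 ± 0.26 (SE; limma adjusted p = 0.436), and the receptors and Adam17 by 0.30 or less in size on the probe sets used. The other Hbegf probe set gave 0.43 ± 0.16 (SE; limma adjusted p = 0.1525 over all probe sets). Further Egfr probe sets gave 0.45 ± 0.17 (SE; limma adjusted p = 0.161 over all probe sets) and -0.01 ± 0.29 (SE).

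Between the controls of the strains no member was called by limma, with 8.43% of all genes called (3.32% higher and 5.11% lower). Erbb3 had an unadjusted p under 0.05. Its log2 difference was 1.11 ± 0.36 (SE; limma adjusted p = 0.0918), higher in 129S2SvPAs. It was 1.50 without 129S2SvPAs control replicate 3 (limma adjusted p = 0.0251) and 1.42 without C57BL6J control replicate 1 (limma adjusted p = 0.0489). Over all fits without 1 array each, the Erbb3 difference ranged from 0.85 to 1.50 (limma adjusted p from 0.0251 to 0.32). Erbb2 was 0.78 ± 0.38 (SE; limma adjusted p = 0.270), and its arrays did not overlap. The arrays of 2 members, Erbb2 and Ereg, were apart, against 31.6% of all genes, and those of Ereg lay at the floor. Egfr was 0.52 ± 0.26 (SE; limma adjusted p = 0.285). A second Egfr probe set gave 0.74 ± 0.17 (SE; limma adjusted p = 0.0254 over all probe sets), so a call for Egfr depends on the probe set, and 4 of its 7 probe sets lay at the floor. Tgfa, at -0.68 ± 0.37 (SE; limma adjusted p = 0.314), was -1.12 without 129S2SvPAs control replicate 2 (limma adjusted p = 0.0431). Over all fits without 1 array each, the Tgfa difference ranged from -1.12 to -0.30 (limma adjusted p from 0.0431 to 0.69). Podocyte markers differed between the controls, with a mean of 7.45 ± 0.42 in 129S2SvPAs and 9.04 ± 0.33 in C57BL6J (SD, n = 3 each) and 6 of 6 lower. All 7 estimates of glomerular endothelial markers were below 0 and 1 was called, Pecam1 (-1.49), with a marker mean of 8.69 ± 0.82 in 129S2SvPAs controls and 9.85 ± 0.41 in C57BL6J controls. Of the 9 thick ascending limb and distal tubule markers 2 were higher in 129S2SvPAs controls, Pvalb (2.39) and Calb1 (1.03). The median difference of that list was 0.31. Of the 9 proximal tubule markers 2 were higher, Hpd (2.37) and Cyp2e1 (1.68), with a list median of -0.05. The other markers of both lists were not called and differed in both directions. Slc22a12, for example, averaged 10.62 in 129S2SvPAs controls and 11.57 in C57BL6J controls. The part of these cell types in the member differences was not tested.

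The difference between the responses of the strains was tested as an interaction. None of the 9 members passed in limma, while 0.562% of all genes did, and 1 member had an unadjusted p under 0.05. That member was Egf. Its response was lower in 129S2SvPAs by 1.38 log2 units (SE 0.28; limma adjusted p = 0.0664), with a 95% interval from -2.00 to -0.77. It passed with each array shifted to 1 median (-1.46, limma adjusted p = 0.0363) and with array weights (-1.43, limma adjusted p = 0.0158), and its limma adjusted p ranged from 0.0158 to 0.179 over 21 alternatives. For Erbb3 the difference of responses was -1.07 ± 0.52 (SE; limma adjusted p = 0.499). For Tgfa it was -0.54 ± 0.52, for Hbegf 0.42 ± 0.37 and for Adam17 0.36 ± 0.31 (SE), each with an interval across 0. The call of Hbegf in 129S2SvPAs is thus no tested difference between the strains.

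Ordered by group mean, Egf was lowest in 129S2SvPAs anti-GBM GN (10.34 ± 0.19), followed by C57BL6J anti-GBM GN (11.55 ± 0.29), C57BL6J controls (11.88 ± 0.17) and 129S2SvPAs controls (12.05 ± 0.34; SD, n = 3 each). The lowest group stood clear, and the other groups overlapped with their neighbours. Hbegf was highest in 129S2SvPAs anti-GBM GN (7.91 ± 0.36), followed by C57BL6J anti-GBM GN (7.53 ± 0.25), C57BL6J controls (7.07 ± 0.36) and 129S2SvPAs controls (7.03 ± 0.41), and each neighbouring pair overlapped. For Tgfa the highest mean was in C57BL6J anti-GBM GN (5.93 ± 0.38). Next came 129S2SvPAs anti-GBM GN (4.71 ± 0.28) and C57BL6J controls (4.71 ± 0.35), which overlapped, and 129S2SvPAs controls were lowest (4.03 ± 0.83) and overlapped with both.

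The tested genes most like a called member were found by the root-mean-square difference of gene-centred log2 values over the 12 arrays, among 11912 genes. For Egf they were Tmem268 (0.268), Cep83os (0.268) and D630004K10Rik (0.270). Tmem268 averaged 3.79 in 129S2SvPAs anti-GBM GN, 5.50 in 129S2SvPAs controls, 5.17 in C57BL6J anti-GBM GN and 5.53 in C57BL6J controls. For Hbegf they were Ralb (0.217), Psmd11 (0.229) and Ap1s1 (0.249). Ralb, a small GTPase, averaged 9.78 in 129S2SvPAs anti-GBM GN, 8.82 in 129S2SvPAs controls, 9.53 in C57BL6J anti-GBM GN and 9.02 in C57BL6J controls.

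The wider pathway was described by 73 listed genes, of which 61 were tested. These lists were chosen with earlier results of these data known, so their shares of calls are descriptive and no independent test of the pathway. In 129S2SvPAs 23 of them were higher in anti-GBM GN and 4 lower, which is 44.3%, against 20.3% of all genes, with a median log2 difference of 0.45 against 0.00. In C57BL6J 11 were higher and 1 lower, which is 19.7% against 7.09%, with a median of 0.33 against -0.03. In the difference of responses limma called 0 of the 61. Without the array that stood apart 5 calls of the 129S2SvPAs response changed. Myc, a transcription factor gene (1.75, limma adjusted p = 0.00131), Dusp5, a phosphatase of ERK (0.64, 0.00710), and the adaptor gene Gab1 (-0.72, 0.00704) were called in addition, and Spred1 and Lrig3 were not. Myc was then also called higher in 129S2SvPAs between challenged mice (1.80, limma adjusted p = 0.00238).

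Other receptors and ligands of the family lay near the floor. Erbb4, the fourth receptor, had group means between 3.26 and 3.60, and Nrg1, a ligand of ERBB3 and ERBB4, between 3.00 and 3.12. Both were tested with no call in any comparison, while Epgn, Nrg2, Nrg3 and Nrg4 were near the floor and were not tested.

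Among the sheddases and their partners, 3 of 8 tested genes rose in each strain, the same 3, namely Rhbdf2, Adam15 and Adam10. Over all genes tested, 10.6% were called higher in 129S2SvPAs and 4.78% in C57BL6J. Rhbdf2 encodes iRhom2, which carries ADAM17 to the cell surface. It gave 6.85, 5.66 and 5.14 in 129S2SvPAs anti-GBM GN, against 4.04, 4.12 and 3.13 in 129S2SvPAs controls. In C57BL6J it gave 5.84, 6.30 and 5.96 in anti-GBM GN, against 4.31, 3.96 and 4.15 in controls. The groups did not overlap in either strain, and the log2 differences were 2.12 ± 0.39 (SE; limma adjusted p = 0.00326) in 129S2SvPAs and 1.89 ± 0.39 (SE; limma adjusted p = 0.0144) in C57BL6J. Adam15, a membrane protease, rose by 1.64 in 129S2SvPAs and by 1.27 in C57BL6J. Adam10 rose by 0.75 in 129S2SvPAs and by 0.57 in C57BL6J. Timp3, an inhibitor of ADAM17, had differences of 0.29 (limma adjusted p = 0.202) in 129S2SvPAs and 0.43 (limma adjusted p = 0.125) in C57BL6J.

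Of 16 adaptors and signal carriers, 5 rose and 1 fell in 129S2SvPAs, where 10.6% of all genes were called higher and 9.76% lower. Those that rose were Stat3 (1.89), the kinase gene Akt1 (0.89), Nras (0.76), Ptpn11, encoding the phosphatase SHP2 (0.56), and the adaptor gene Grb2 (0.43), and Pik3ca, a PI3-kinase subunit, fell by 0.87. In C57BL6J only Akt1 was called (0.67), against 7.09% of all genes. With the replicate number as a block Nras was called there as well (0.53, limma adjusted p = 0.0343). In 129S2SvPAs the same block added Shc1 (0.49, limma adjusted p = 0.0422) and no longer called Grb2 (limma adjusted p = 0.068). Stat3 gave 10.09, 9.41 and 9.38 in 129S2SvPAs anti-GBM GN, against 7.81, 7.85 and 7.55 in 129S2SvPAs controls. Its difference in C57BL6J was 0.79 (limma adjusted p = 0.128), and the difference of responses did not pass (1.10, limma adjusted p = 0.331).

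Of 17 feedback inhibitors, 5 rose and 1 fell in 129S2SvPAs, where 10.6% of all genes were called higher and 9.76% lower. Socs3, a suppressor of cytokine and receptor signalling, rose by 1.85, Spry2, a Sprouty inhibitor of receptor kinase signalling, by 0.98, Socs5 by 0.84, Dusp6, a phosphatase of ERK, by 0.83, and Spred1 by 0.45. Lrig3 fell by 0.81, and the calls of Spred1 and Lrig3 were lost without the array that stood apart (limma adjusted p = 0.0776 and 0.129). None of the 17 was called by limma in C57BL6J, where 7.09% of all genes were called. With the replicate number as a block Spry1 was called lower there (-1.09, limma adjusted p = 0.0456). In 129S2SvPAs the same block called Spry1 higher (1.05, limma adjusted p = 0.0253) and no longer called Lrig3 (limma adjusted p = 0.0757). Between controls 4 of them, Spry1 (-2.02), Socs3 (-1.07), Rnf41 (-0.77) and Dusp6 (-0.72), were lower in 129S2SvPAs. These were the only calls among all 61 pathway genes between controls, which is 6.56%, against 8.43% of all genes, and the podocyte and endothelial markers given above were lower in the same mice. Between challenged mice Rnf41, a ubiquitin ligase that acts on ERBB3, was lower in 129S2SvPAs (-0.57) and Spry2 was higher (0.62). The Spry2 call was lost without the array that stood apart (0.48, limma adjusted p = 0.0563).

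Spry1 had estimates of opposite sign in the strains. It gave 5.44, 5.63 and 5.13 in 129S2SvPAs anti-GBM GN, against 4.72, 5.16 and 3.16 in 129S2SvPAs controls, where the groups overlapped. In C57BL6J it gave 5.34, 5.55 and 4.93 in anti-GBM GN, against 6.41, 6.67 and 6.01 in controls, where they did not. The difference was 1.05 ± 0.42 (SE; limma adjusted p = 0.107) in 129S2SvPAs and -1.09 ± 0.42 (SE; limma adjusted p = 0.163) in C57BL6J, and the difference of responses was 2.14 ± 0.60 (SE; limma adjusted p = 0.185).

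Genes that growth factor signalling induces had the most calls of the 5 lists. Of 18 tested, 10 rose and 2 fell in 129S2SvPAs, and 7 rose and 1 fell in C57BL6J. Over all genes, 10.6% were called higher and 9.76% lower in 129S2SvPAs, and 4.78% and 2.31% in C57BL6J. Ptgs2, encoding cyclooxygenase-2, gave 4.85, 5.48 and 5.17 in 129S2SvPAs anti-GBM GN, against 2.74, 3.11 and 2.87 in 129S2SvPAs controls. It gave 3.48, 4.05 and 3.35 in C57BL6J anti-GBM GN, against 2.97, 3.15 and 2.68 in C57BL6J controls. The controls of both strains were near the floor, so the log2 difference of 2.26 ± 0.22 (SE; limma adjusted p = 7.48e-05) is on the scale of the deposited signal only. Ptgs2 was also higher in 129S2SvPAs between challenged mice, by 1.54 ± 0.22 (SE; limma adjusted p = 0.00145). Its response was larger in 129S2SvPAs by 1.57 ± 0.31 (SE; limma adjusted p = 0.0583), and this passed without the array that stood apart (1.73, limma adjusted p = 0.0301). With the replicate number as a block the C57BL6J response of Ptgs2 was called as well (0.69, limma adjusted p = 0.0201).

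Phlda1, an early response gene, rose by 1.68 in 129S2SvPAs and by 2.09 in C57BL6J. The early gene Ier2 rose by 1.55 in 129S2SvPAs and by 0.81 in C57BL6J, and the transcription factor gene Klf6 rose by 1.88 in 129S2SvPAs and by 0.88 in C57BL6J. Of the early transcription factor genes, Egr1 rose by 2.65 in 129S2SvPAs and by 2.02 in C57BL6J, and Fos by 1.89 in 129S2SvPAs and by 1.87 in C57BL6J. Plau, the urokinase gene, fell by 1.40 in 129S2SvPAs and by 1.23 in C57BL6J, and Vegfa, a growth factor gene of podocytes, fell by 1.42 in 129S2SvPAs. Between controls 0 of the 18 were called by limma, and with the replicate number as a block Ier2 (-0.52) and Jun (-0.81) were called lower in 129S2SvPAs. Markers of other cells also moved in anti-GBM GN. The mean of 5 platelet markers was 4.64 in 129S2SvPAs anti-GBM GN and 2.91 in 129S2SvPAs controls, and 5.73 in C57BL6J anti-GBM GN and 3.46 in C57BL6J controls. Of these 5 markers, 2 rose in 129S2SvPAs and 3 in C57BL6J, and Gp9 was near the floor on all arrays. Of the 5 mesangial markers tested, 3 rose in 129S2SvPAs and 2 in C57BL6J. Of the monocyte and macrophage markers 1 of 6 tested, Cd14, rose in each strain (4.16 in 129S2SvPAs and 1.82 in C57BL6J), and no other was called. The median difference of the list was -0.40 in 129S2SvPAs and 0.69 in C57BL6J. Ptprc (5.09 against 5.92), Csf1r (6.51 against 7.15) and Lyz2 (7.13 against 8.49) averaged lower in 129S2SvPAs anti-GBM GN than in 129S2SvPAs controls. Cd68 was level there (3.26 against 3.22), and Adgre1 and Itgam were near the floor on all arrays. Of 7 glomerular endothelial markers, Pecam1 (2.67) and Cdh5 (1.71) rose and Ehd3 fell (-2.56) in 129S2SvPAs, and Ehd3 fell (-1.94) in C57BL6J. Of 6 podocyte markers, Podxl (1.18) and Synpo (1.06) rose and Nphs1 (-1.68) and Cdkn1c (-1.35) fell in 129S2SvPAs, and 0 were called by limma in C57BL6J, where 1, Wt1, had an unadjusted p under 0.05. The part of other cells in the pathway counts was not tested.

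**Figure D4:**
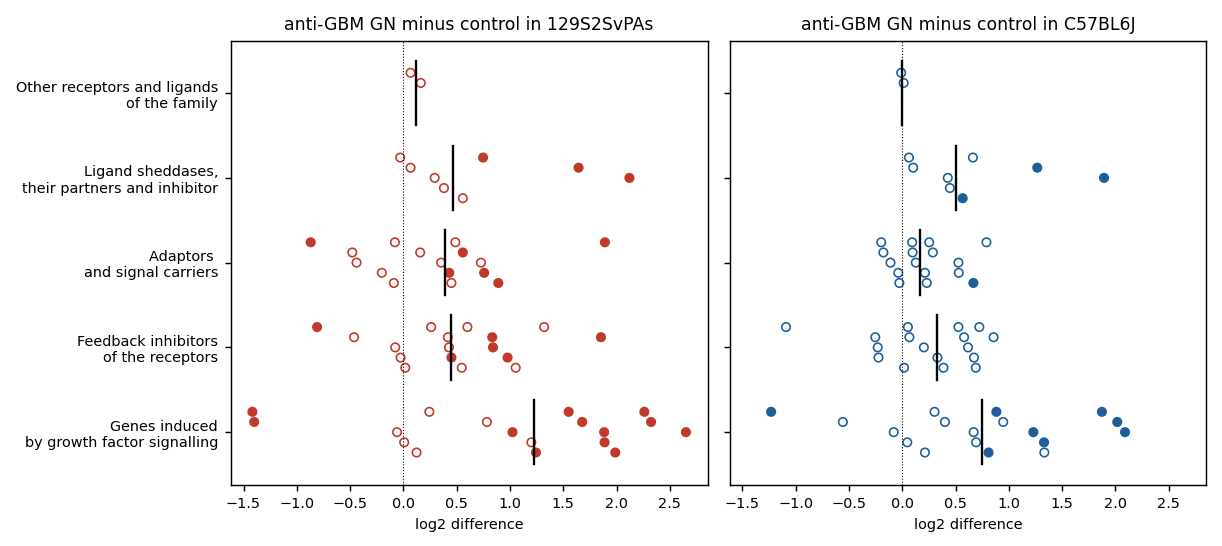
Log2 difference between anti-GBM GN and control (x axis) of each tested gene of the 5 pathway lists (y axis), in 129S2SvPAs (left) and C57BL6J (right). Filled points have a limma adjusted p under 0.05 and the vertical bar is the list's median. The genes induced by growth factor signalling have medians of 1.22 in 129S2SvPAs and 0.75 in C57BL6J.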

How the data were processed

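RNA of isolated glomeruli from 12 mice was measured on Affymetrix arrays, 1 per mouse. The authors deposited log2 signals for 45037 probe sets. MAS5 and GCRMA are named in the submitters' processing notes, with neither a version nor the step each served. Values from 1.12 to 15.02 show the log2 scale. No batch was tested because the sources used here hold no scan date. The platform annotation gave 1 symbol to 34957 probe sets, several to 920 and none to 9160.

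Genes whose probe set exceeded the median of the table, 3.03, on at least 3 arrays were tested with limma 3.58.1 in R 4.3.3. The fit had 1 mean per group and 10.7 total degrees of freedom, with contrasts, empirical Bayes moderation and Benjamini-Hochberg adjustment over 11921 genes, and an adjusted p under 0.05 made a call. The number of arrays limits the precision. Data were simulated with true log2 changes in 200 of the 11921 genes. Of changes of 1, 58% were recovered for the 129S2SvPAs response, 64% for the C57BL6J response and 26% for the difference of responses. Of changes of 2 it was 94%, 94% and 84%. The real 129S2SvPAs response had 2424 called genes, so its adjustment differs and these shares need not hold for it.

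The members, the gene lists and the tests were chosen with earlier results of these data known. All members are named. Of each pathway list up to 4 called genes per comparison with the lowest p are named, and genes named beyond these, such as the other members of small counts, were chosen after their values were seen. Per called member the 3 genes most like it are named. The alternatives left out each array, fitted only the compared groups, used a replicate block or array weights, set a trended prior with robust estimation, averaged a gene's probe sets, dropped or tightened the filter, or normalized by quantiles or by the array median. Testing every probe set on its own, and the pathway counts without the array that stood apart, were added after seeing the data. Same-numbered arrays deviated together in the C57BL6J response (r = 0.21, 0.24 and 0.33) and between controls (r = 0.24, 0.28 and 0.24). In each of these comparisons 6 of 6 arrays correlated best with their own number. The replicate numbers come from the labels, and a pairing of those samples was inferred from these values. The main fit left that pairing out, so its p-values for these comparisons ignore it. Only the replicate block used it. Promoters came from RefSeq on GRCm38.p6, and none is shown for Hbegf, Erbb3 or Ereg. Figures were drawn with matplotlib 3.10.9.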

Additional observations from a re-analysis of the deposited data

How the results depend on the processing

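The limits are 3 mice per group, 1 array that stood apart and ligands close to the floor. No called difference changed sign in any alternative, and of 750 values of single members under the alternatives 723 kept their side of the threshold, 19 passed newly and 8, all of Hbegf in 129S2SvPAs, no longer passed. Among differences that were not called, 23 values had the opposite sign. The floor at the table median counted all 9 measured members as detected, Btc and Ereg included, and the floor at the 75th percentile counted 6. In the 129S2SvPAs response 1 member was called after quantile normalization, after shifting each array to 1 median, without the filter and with the compared groups fitted alone, because Hbegf no longer passed (limma adjusted p = 0.0546, 0.0572, 0.0751 and 0.0949), and 5 were called with array weights. Counts without 1 array each ranged from 1 to 3. In the C57BL6J response 2 members were called with array weights (Tgfa and Btc) and 1, Tgfa, with the replicate block and with the compared groups fitted alone (limma adjusted p = 0.0344), and 0 without any 1 array. Between controls 1 (Erbb3) was called with array weights, and 0 to 1 without 1 array each. Between challenged mice 2 were called with array weights, with the replicate block and with the compared groups fitted alone, Egf and Tgfa (limma adjusted p of Tgfa = 0.0159, 0.00835 and 0.0388), and 1 without any 1 array. In the difference of responses 1 (Egf) was called after shifting each array to 1 median and with array weights, and 0 without any 1 array.

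Array weights called 3830 of all genes in the 129S2SvPAs response, 2021 in the C57BL6J response, 2256 between challenged mice, 1601 between controls and 286 in the difference of responses. With the compared groups fitted alone, limma called 1415 in the 129S2SvPAs response and 578 between challenged mice. For the difference of responses 18 were called with the stricter filter and 33 with the replicate block, and 11 to 130 without 1 array each, the highest without 129S2SvPAs anti-GBM GN replicate 1. Without 1 array each, 1761 to 2642 genes were called in the 129S2SvPAs response, 385 to 962 in the C57BL6J response, 587 to 1099 between challenged mice and 503 to 992 between controls. The causes of these shifts were not tested.

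In the 129S2SvPAs response and between challenged mice the arrays share only a replicate number, with correlations of same-numbered deviations from -0.16 to 0.18 and from -0.38 to 0.12, and 2 of 6 and 1 of 6 arrays correlated best with their own number. The replicate block changed the number of all genes called by less than 1.5 times in the 4 comparisons of 2 groups. In the difference of responses it called 1 of the 61 pathway genes, Ptgs2 (1.57, limma adjusted p = 0.0254). In the 129S2SvPAs response the block called 25 pathway genes higher and 3 lower. It added Myc (1.20, limma adjusted p = 0.0475), Shc1 and Spry1, and lost Grb2 and Lrig3. Without the array that stood apart 24 pathway genes rose and 4 fell in the 129S2SvPAs response, with 3 calls gained (Myc, Dusp5 and Gab1) and 2 lost (Spred1 and Lrig3).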
